A study of Mus musculus with 8 samples.

Results

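The 8 genes described here, Srebf2, Scap, Insig1, Insig2, Mylip, Stard4, Npc1l1 and Soat2, encode the sterol-sensing switch around the transcription factor SREBP2, a ligase that controls the LDL receptor protein, and proteins that move, take up or esterify cholesterol. They were chosen by symbol, and all 8 were found among the 55487 genes of a liver RNA sequencing table. Male C57Bl/6J mice, with no genotype given beyond the strain, received an oral gavage at about 10 weeks of age and their livers were taken 4 hours later. The 4 control libraries came from mice given water and the 4 sorbate libraries from mice given 17 mg of potassium sorbate, a food preservative that supplies sorbic acid. The question put to these genes is whether their transcript levels differed between sorbate and water. Whether the libraries came from separate animals is not stated, so p-values measure the spread between libraries, which may be partly technical.

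SREBP2 is made as an inactive precursor in the membrane of the endoplasmic reticulum, where it is bound to its escort SCAP. When membrane sterol is scarce, SCAP carries it to the Golgi, where a pair of proteases free its transcription factor domain, which enters the nucleus and switches on genes of cholesterol synthesis and uptake. When sterol is plentiful, the INSIG proteins hold SCAP back in the endoplasmic reticulum, and the liver, the main organ of whole-body cholesterol balance, then makes less cholesterol.

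The 3 genes that fell with sorbate are Insig1, Srebf2 and Insig2, and the letters upstream of their starts are given here for comparison. Each stretch is the 250 bases before a RefSeq start on GRCm38.p6, read 5′ to 3′ on the gene's strand. GENCODE, the source of the gene coordinates given below, starts Insig1 at 28071363 and Srebf2 at 82147181, which lie inside their stretches. Capitals mark the E-box CACGTG, the NF-Y box CCAAT and the Sp1 box GGGCGG, each searched on both strands, so that CCAAT on the other strand reads ATTGG and GGGCGG reads CCGCCC. Insig1 lies at chr5:28071162-28071411 on the plus strand, Srebf2 at chr15:82147019-82147268 on the plus strand, and the outermost of 3 Insig2 windows at chr1:121332590-121332839 on the minus strand.
Insig1: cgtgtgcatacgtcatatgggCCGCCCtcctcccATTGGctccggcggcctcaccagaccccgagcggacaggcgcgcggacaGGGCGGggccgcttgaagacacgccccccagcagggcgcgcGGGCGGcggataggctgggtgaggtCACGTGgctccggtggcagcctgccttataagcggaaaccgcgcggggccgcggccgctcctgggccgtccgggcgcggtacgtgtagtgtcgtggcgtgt
Srebf2: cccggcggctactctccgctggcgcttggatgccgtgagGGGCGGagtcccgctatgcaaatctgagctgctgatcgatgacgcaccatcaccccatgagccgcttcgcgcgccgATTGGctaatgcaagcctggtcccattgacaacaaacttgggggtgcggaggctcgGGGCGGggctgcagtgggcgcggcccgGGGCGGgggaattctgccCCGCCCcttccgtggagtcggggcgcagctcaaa
Insig2: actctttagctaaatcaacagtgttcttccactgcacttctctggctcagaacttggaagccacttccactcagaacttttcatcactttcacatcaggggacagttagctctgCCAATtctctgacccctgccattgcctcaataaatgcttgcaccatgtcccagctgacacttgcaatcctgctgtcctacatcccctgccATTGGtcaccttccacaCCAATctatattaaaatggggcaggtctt
The Insig1 stretch held 1 E-box, 1 NF-Y box and 3 Sp1 boxes, and the Srebf2 stretch 1 NF-Y box and 4 Sp1 boxes. The Insig2 stretch held 3 NF-Y boxes and no Sp1 box or E-box. Each of the other Insig2 windows, not printed, held 1 Sp1 box and no NF-Y box or E-box. Their GC content was 72.8% for Insig1, 67.6% for Srebf2 and 47.2% for Insig2. A core of the sterol regulatory element, TCACNCCAC, was searched on either strand with no mismatch allowed. It was in none of the windows of the 6 genes that had a window. Sites that differ from it by a letter were not counted. Over all 32851 windows of 300 bases (250 before and 50 after a start), 1.24% held that core, 7.15% the E-box, 37.4% the NF-Y box and 35.7% the Sp1 box. Of 17 sterol synthesis genes with a window, 1 held the core, 3 the E-box, 16 the NF-Y box and 15 the Sp1 box. These matches describe letters in these windows and show neither binding nor its absence. No window was used for Stard4 and Soat2.

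With sorbate, Insig1, Srebf2 and Insig2 fell to 0.402, 0.491 and 0.504 times the control level. None of the 7 tested genes was called higher. Scap, Stard4, Mylip and Soat2 were tested and not called, and Npc1l1 had too few reads to be tested. Levels are given as CPM, reads of a gene per 1000000 reads of a library whose size was adjusted by the trimmed mean of M-values (TMM). A gene was called when its p from the quasi-likelihood test of edgeR, adjusted by Benjamini-Hochberg over all 13312 genes tested, was under 0.05. Of the 7 members tested, 3 were called lower, beside 6.30% of all genes tested that were called lower, and 0 were called higher, beside 6.14%. An unadjusted p under 0.05 was reached by the same 3 genes, and DESeq2 and limma-voom called 0 members higher too. The groups did not overlap in those 3 genes, as in 17.7% of all genes tested. In bulk tissue, fewer cells of a type and less RNA per cell cannot be told apart.

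**Figure D1:**
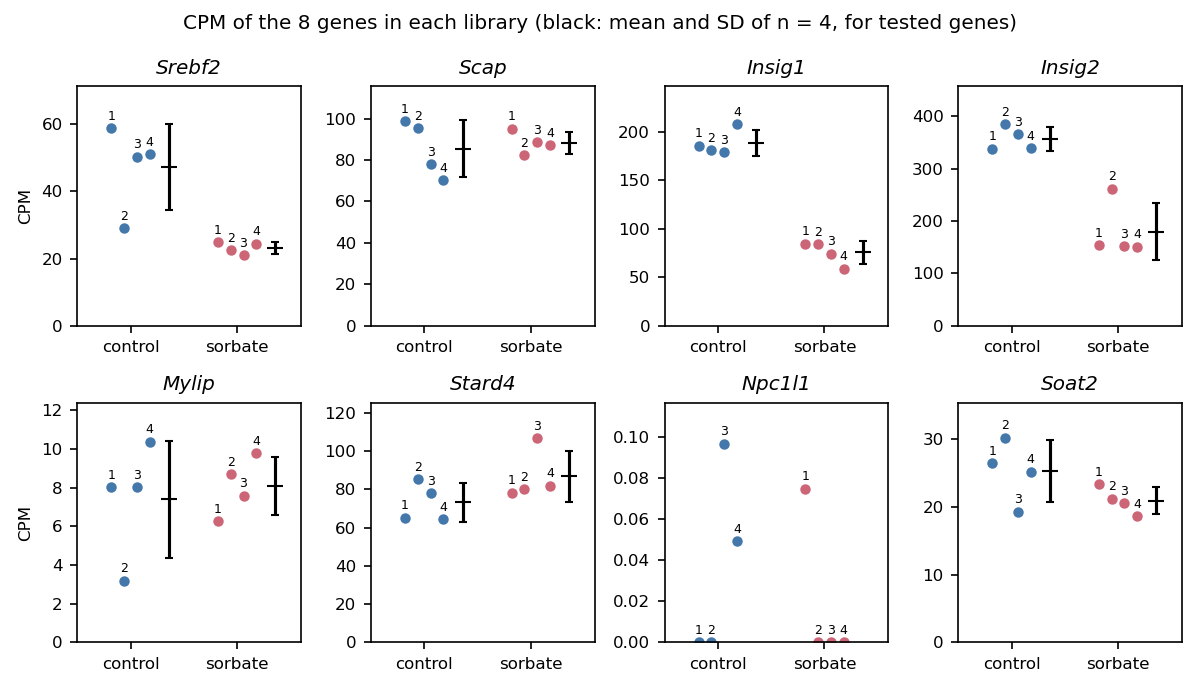
CPM (y axis, each from 0) of the 8 genes in each of 4 control and 4 sorbate libraries (points, numbered by replicate), with black marks for the mean and SD of the tested genes. Insig1, Insig2 and Srebf2 show every sorbate library below every control, with the control 2 value of Srebf2 at 28.9 CPM and the sorbate 2 value of Insig2 at 261.9 CPM nearest to the other group.

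Srebf2 (ENSMUSG00000022463, chromosome 15, 82147181 to 82205379), the gene of the transcription factor itself, is also known as a target of its own protein. It had 58.6, 28.9, 50.3 and 51.0 CPM in controls 1 to 4 and 24.9, 22.4, 21.1 and 24.4 CPM in sorbate libraries 1 to 4. Control 2 stood well below the other controls and only a little above the highest sorbate library. The means were 47.2 ± 12.8 and 23.2 ± 1.75 CPM (SD, n = 4 each). The log2 fold change was −1.03 (SE 0.19, 95% interval −1.44 to −0.61, adjusted p = 0.00810 by edgeR's quasi-likelihood test). Without control 2 it was −1.19. With 1 surrogate variable as a covariate it was −0.58 (adjusted p = 0.0162, range over the 6 alternatives other than leave-outs 2.83e-05 to 0.0162). That variable was 0.471 in control 2, from 0.0844 to 0.305 with sorbate and from −0.532 to −0.365 in the other controls and its correlation with the group was 0.588. Mir33, whose hairpin lies within Srebf2, was at 0 reads in all 8 libraries. These libraries of poly(A) RNA were not made to hold mature miRNAs.

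Scap (ENSMUSG00000032485, chromosome 9, 110333288 to 110384950), which encodes the escort and sterol sensor of SREBP2, had 98.6, 95.4, 77.9 and 70.3 CPM in controls 1 to 4. The sorbate libraries had 95.1, 82.2, 88.5 and 87.0 CPM, all within the range of the controls. The means were 85.5 ± 13.6 and 88.2 ± 5.30 CPM (SD, n = 4 each), a log2 difference of 0.04 ± 0.13 (SE; edgeR's adjusted p = 0.844). The 95% interval of the difference ran from −0.23 to 0.32, that is from 0.851 to 1.25 times the control level. The escort thus showed no called change while the factor it carries fell at the transcript level, and the sign of its small difference turned without control 4 (−0.04) and with the surrogate variable (−0.03).

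Insig1 and Insig2 encode the anchors that keep SCAP in the endoplasmic reticulum. Insig1 is itself a classic SREBP target, whereas the liver makes an Insig2 transcript that is known to be lowered by insulin. Both genes fell.

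Insig1 (ENSMUSG00000045294, chromosome 5, 28071363 to 28078662) had 185.8, 180.9, 179.1 and 207.6 CPM in controls 1 to 4. With sorbate it had 84.9, 84.5, 74.3 and 59.1 CPM. The gap between the lowest control and the highest sorbate library was wider than the range within either group. The means were 188.4 ± 13.2 and 75.7 ± 12.1 CPM (SD, n = 4 each; log2 fold change −1.31, SE 0.13, 95% interval −1.61 to −1.02, adjusted p = 6.079e-04 by edgeR). It had the lowest p of the members. Control 2 lay within the other controls for Insig1, which differs from its place for Srebf2. Leaving out control 2 gave a log2 fold change of −1.32, and adding the surrogate variable gave −1.26.

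Insig2 (ENSMUSG00000003721, chromosome 1, 121304353 to 121332589) had 338.3, 385.0, 366.3 and 339.0 CPM in controls 1 to 4. With sorbate it had 154.2, 261.9, 152.6 and 151.5 CPM. Sorbate libraries 1, 3 and 4 were close together, and sorbate 2 lay between them and the controls. The means were 357.2 ± 22.7 and 180.0 ± 54.6 CPM (SD, n = 4 each; log2 fold change −0.99, SE 0.18, 95% interval −1.39 to −0.58, adjusted p = 0.00870 by edgeR). Without sorbate 2 the log2 fold change was −1.22, and with the surrogate variable −0.99. A predicted gene on the opposite strand, Gm37174, overlaps Insig2 and had 0 to 11 reads per library, against 2489 to 7576 for Insig2. The counts do not separate the Insig2 transcripts that start at different first exons.

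Since the anchors are partly redundant, their ratio within a library was compared as well, which needs no scaling between libraries. On the log2 scale Insig1 minus Insig2 was −0.86, −1.09, −1.03 and −0.71 in controls 1 to 4 and −0.86, −1.63, −1.04 and −1.36 in sorbate libraries 1 to 4. The groups overlapped. The means were −0.92 ± 0.17 and −1.22 ± 0.34 (SD, n = 4 each), a difference of −0.30 that did not pass a two-sided exact permutation test over 70 arrangements (p = 0.2, where the smallest possible is 0.0286). It was −0.16 without sorbate 2, the library with the high Insig2 value. Whether Insig1 fell more than Insig2 was therefore not shown.

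**Figure D2:**
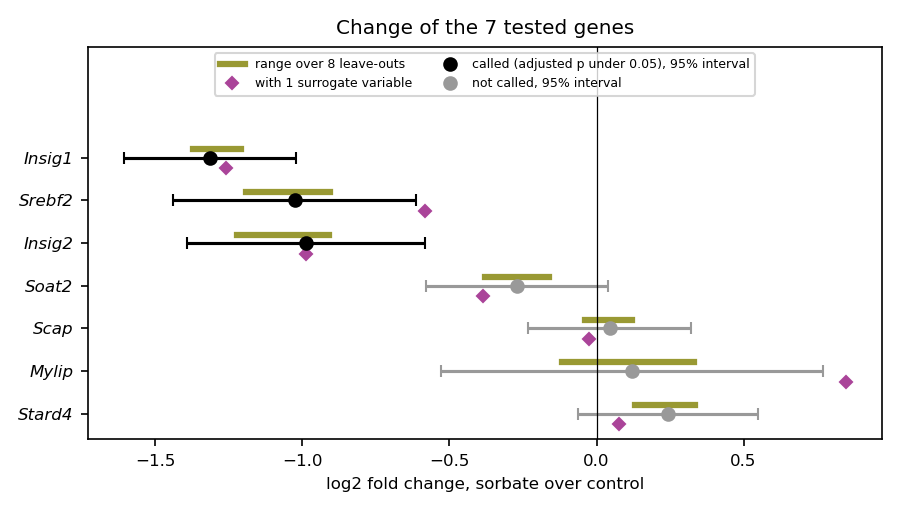
Log2 fold change of sorbate over control (x axis) for the 7 tested genes (y axis), with 95% intervals in black for called and grey for uncalled genes, the range over 8 leave-outs as a bar and the value with 1 surrogate variable as a diamond. The intervals of Insig1, Srebf2 and Insig2 lie below 0, and the diamond moves most for Mylip (0.85) and Srebf2 (−0.58).

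Mylip (ENSMUSG00000038175, chromosome 13, 45389742 to 45412022) encodes the ubiquitin ligase MYLIP, also called IDOL, which is induced by the sterol-activated receptor LXR and marks the LDL receptor protein for degradation. It was the lowest of the tested members, with 8.02, 3.18, 8.03 and 10.4 CPM in controls 1 to 4 and 6.28, 8.71, 7.59 and 9.80 CPM in sorbate libraries 1 to 4. Control 2, with 57 reads, was the only library under 6 CPM, and apart from it the groups covered like ranges. The means were 7.40 ± 3.02 and 8.10 ± 1.51 CPM (SD, n = 4 each; log2 fold change 0.12, SE 0.29, 95% interval −0.53 to 0.77, adjusted p = 0.817 by edgeR). The sign turned without control 2 (−0.12) and with sample quality weights in limma-voom (−0.06). With the surrogate variable the value was 0.85 (adjusted p = 0.0787), so no direction can be given. In control 2 the summed CPM of 7 sinusoidal endothelial markers was 100.8 and that of 8 Kupffer cell and macrophage markers 195.5, each the lowest of the controls. The highest control sums were 214.0 and 470.7. With sorbate these sums ran from 104.3 to 134.2 and from 140.8 to 272.6, where Mylip stood at 6.28 to 9.80 CPM. The part of these cells in the Mylip value was not tested.

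Stard4 (ENSMUSG00000024378, chromosome 18, 33199355 to 33213862) encodes a soluble carrier that moves cholesterol between membranes, and is known as an SREBP2 target. It had 65.1, 85.2, 78.1 and 64.5 CPM in controls 1 to 4, and 78.3, 80.0, 106.8 and 81.8 CPM in sorbate libraries 1 to 4. Sorbate 3 stood above all other libraries, and the remaining sorbate values lay within the control range. The means were 73.2 ± 10.2 and 86.7 ± 13.5 CPM (SD, n = 4 each; log2 fold change 0.24, SE 0.14, adjusted p = 0.271 by edgeR). Its 95% interval of −0.06 to 0.55 does not overlap that of Insig1 (−1.61 to −1.02), another SREBP target.

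Soat2 and Npc1l1 handle cholesterol at the point of storage and of uptake. SOAT2 joins cholesterol to a fatty acid for lipoprotein loading in liver and intestine. NPC1L1 takes up sterol from the gut lumen and, in species that express it in liver, from bile.

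Soat2 (ENSMUSG00000023045, chromosome 15, 102150526 to 102163469) had 26.4, 30.2, 19.3 and 25.2 CPM in controls 1 to 4. With sorbate it had 23.4, 21.2, 20.5 and 18.6 CPM. The lowest control, control 3, lay within the sorbate range, so the groups overlapped. The means were 25.3 ± 4.53 and 20.9 ± 1.95 CPM (SD, n = 4 each; log2 fold change −0.27, SE 0.14, 95% interval −0.58 to 0.04, adjusted p = 0.226 by edgeR). Its close relative Soat1, which esterifies cholesterol in macrophages and many other cells, stood at 4.13 ± 0.552 and 2.60 ± 0.763 CPM (a log2 difference of −0.66 ± 0.24, SE, with an adjusted p of 0.0906 by edgeR). Soat1 passed the threshold without control 2 (−0.73, adjusted p = 0.0381) and with sample quality weights in limma-voom (−0.75, adjusted p = 0.0179), and over all alternatives its adjusted p ran from 0.0179 to 0.411.

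Npc1l1 (ENSMUSG00000020447, chromosome 11, 6211013 to 6230143) had 0, 0, 2 and 1 reads in controls 1 to 4 and 2, 0, 0 and 0 reads in sorbate libraries 1 to 4. It did not pass the filter on low counts, and no difference could be detected at such depth. A count of 0 allows up to 3 reads, which is 0.112 to 0.183 CPM in these libraries, for counting error only. Of 8 gut epithelial markers, Alpi and Cdx2 were at 0 in all 8 libraries, and Vil1, Sis and Muc2 had means of at most 0.103 CPM in either group. The others were well detected. Fabp2 rose from 59.4 ± 11.1 to 98.3 ± 30.5 CPM and Lgals4 from 7.36 ± 2.22 to 16.5 ± 3.05 CPM (SD, n = 4 each; adjusted p = 0.0430 and 0.00908 by edgeR), while Apoa4 stood at 356.5 ± 73.6 and 659.7 ± 521.7 CPM (adjusted p = 0.180).

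Levels per kilobase of exon give a rough comparison of genes with each other. The length is that of all annotated exons of a gene merged, which can exceed that of the transcripts made. Spread between libraries does not measure this error. In the controls the means were 102.8 ± 6.53 CPM per kb for Insig2, 60.9 ± 4.25 for Insig1, 13.1 ± 1.82 for Stard4 and 11.5 ± 1.83 for Scap. They were 11.4 ± 2.05 for Soat2, 6.57 ± 1.78 for Srebf2 and 2.29 ± 0.935 for Mylip (SD, n = 4). The ranges of Stard4, Scap and Soat2 overlapped, so their order is not set by these libraries, while the ranges of the other neighbours in that order did not overlap. With sorbate the order of the means was the same. Insig2 at 51.8 ± 15.7 and Insig1 at 24.5 ± 3.92 CPM per kb came closer to Stard4 at 15.5 ± 2.41. The lowest sorbate value of Insig1 and the highest of Stard4 were both 19.1, so these ranges met at their ends, and those of Srebf2 (2.94 to 3.46) and Mylip (1.94 to 3.03) overlapped. The per-length ratio of Insig1 to Insig2 ran from 0.528 to 0.688 in the controls and from 0.363 to 0.618 with sorbate. By this measure Insig2 was the more abundant anchor transcript in every library.

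**Figure D3:**
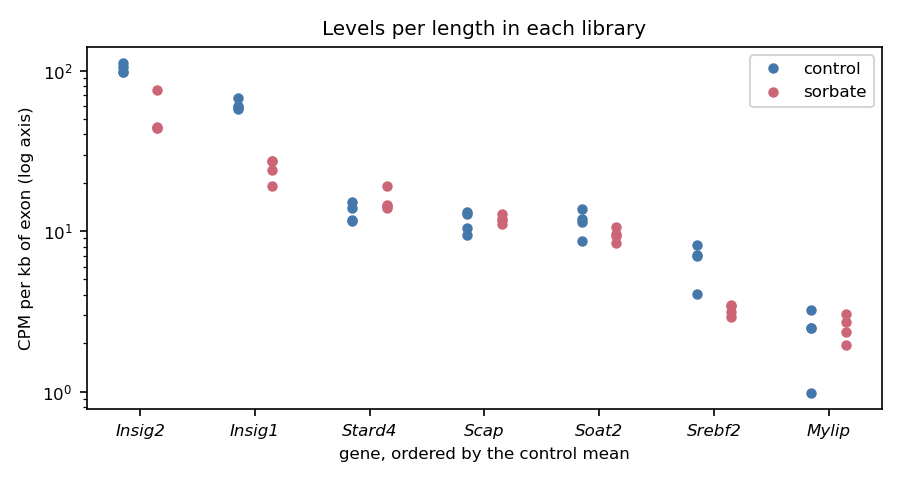
CPM per kilobase of exon (y axis, log scale) of the 7 tested genes in control (blue) and sorbate (red) libraries, ordered by the control mean. Insig2 and Insig1 stand above the others in the controls, at means of 102.8 and 60.9, and drop toward the level of Stard4 with sorbate.

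The enzymes of sterol synthesis, classic SREBP2 targets, fell together with Srebf2. Of 22 genes of sterol synthesis, all tested, 17 fell and 0 rose, beside 6.30% and 6.14% of all genes tested. Their median log2 fold change was −1.34, beside −0.02 over all genes tested. These genes have been reported on before from the same libraries, so the count is no independent evidence. Sqle, squalene epoxidase, fell from 85.3 ± 40.2 to 5.65 ± 1.66 CPM (SD, n = 4 each; log2 fold change −3.91, SE 0.43). Idi1, the isomerase of the isoprenoid units, had a log2 fold change of −2.97 (SE 0.29), Hmgcs1, the synthase at the pathway's entry, −2.61 (SE 0.27), and Cyp51, the lanosterol demethylase, −1.98 (SE 0.23; adjusted p of the 4 genes from 4.772e-04 to 0.00121 by edgeR). With the surrogate variable the values of Sqle, Idi1, Hmgcs1 and Cyp51 were −2.78, −2.52, −2.02 and −1.49, all still called. Control 2 was low in all 4, as it was for Srebf2 but not for Insig1. Its Sqle level was 25.5 CPM against 98.1 to 110.0 CPM in the other controls and 3.89 to 7.69 CPM with sorbate. Over the leave-outs 14 to 20 genes of the list were called lower, 20 of them without control 2.

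**Figure D4:**
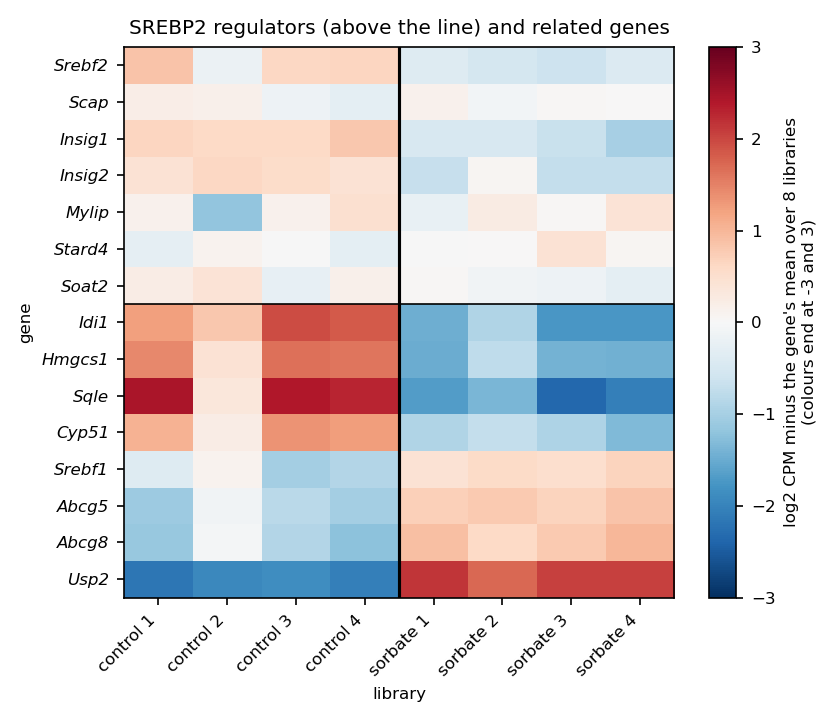
Log2 CPM minus the gene's mean over 8 libraries (colour, red above and blue below the mean) for the 7 tested regulators and 8 related genes (rows) in each library (columns). Control 2 is paler than the other controls in Srebf2, Sqle and Hmgcs1 and not in Insig1 or Insig2.

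Genes that transport, cleave or degrade SREBP and its partners held calls in both directions. Of 29 tested, 2 rose and 3 fell, beside 6.14% and 6.30% of all genes tested, and the median log2 value was 0.07. The proteases that free SREBP in the Golgi were not called. Mbtps1 stood at 51.0 ± 1.66 and 53.9 ± 3.79 CPM (SD, n = 4 each; log2 fold change 0.08, SE 0.09), and Mbtps2 at 7.98 ± 0.729 and 7.93 ± 0.607 CPM (−0.01, SE 0.13; adjusted p = 0.607 and 0.978 by edgeR). Srebf1, which encodes the related, mainly lipogenic factor SREBP1, went the opposite way to Srebf2. It rose from 112.0 ± 41.0 to 228.9 ± 16.1 CPM, by 1.03 ± 0.22 (SE) on the log2 scale (edgeR's adjusted p = 0.0141), and the call was lost with the surrogate variable (0.76, adjusted p = 0.0506). Control 2 had 167.3 CPM of it, the highest of the controls. Tmub1, a membrane protein of the endoplasmic reticulum named after its value was seen, rose by 0.53 (SE 0.15, adjusted p = 0.0491). Its call was kept in 1 of 8 leave-outs, that of control 2 (0.44 to 0.58 over the 8), and lost with no filter (0.54) and with the surrogate variable (0.51). Sec13 and Sec23b, of the coat of vesicles that leave the endoplasmic reticulum, and Syvn1, a ubiquitin ligase of that membrane, fell by 0.56, 0.73 and 0.92 on the log2 scale. With the surrogate variable they stood at −0.47, −0.40 and −0.42 and none of these 3 was called (adjusted p = 0.0629, 0.157 and 0.242). The Sec23b call was also lost without control 1, control 3, sorbate 2, sorbate 3 or sorbate 4 (log2 fold change −0.73 to −0.61). The Syvn1 call was lost without any library other than control 2 and sorbate 1 (−0.95 to −0.75).

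Genes around LXR, the receptor that drives Mylip, split. Of 13 tested, 3 rose and 1 fell, beside 6.14% and 6.30% of all genes tested. Their median was −0.08 on the log2 scale. The receptor genes Nr1h3 (−0.20, SE 0.09, adjusted p = 0.178) and Nr1h2 (−0.11, SE 0.09, adjusted p = 0.448) were not called. The sign of Nr1h2 turned with library size alone (0.01), and Nr1h3 passed the threshold with sample quality weights in limma-voom (−0.23, adjusted p = 0.0488), with adjusted p from 0.0488 to 0.611 over all alternatives. The targets Abcg5 and Abcg8, whose products together export sterol into bile, rose from 51.6 ± 17.9 to 142.4 ± 8.35 CPM and from 50.8 ± 21.2 to 150.7 ± 18.1 CPM (SD, n = 4 each; adjusted p = 0.00236 and 0.00368 by edgeR). Control 2 was the highest control for both, at 78.0 and 81.9 CPM. Abca1 (−0.30, SE 0.21) and Abcg1 (−0.41, SE 0.19) of the same list, named after their values were seen, were not called. Their adjusted p by edgeR was 0.383 and 0.170. Lpcat3, a phospholipid remodelling enzyme, rose by 0.59 (SE 0.13, adjusted p = 0.0158), a call lost without control 3 (0.56) and with the surrogate variable (0.47). Scd1, a fatty acid desaturase, fell by 1.17 (SE 0.34, adjusted p = 0.0468) with overlapping groups. That call was lost in all leave-outs except those of control 2 and control 4 (−1.34 to −0.83 where lost), with the surrogate variable (−0.69) and with library size alone (−1.04). Mylip, itself an LXR target, had the value of 0.12 given above and was not called with them.

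Among 20 genes of lipoprotein receptor traffic 3 rose and 0 fell, beside 6.14% and 6.30% of all genes tested. Their median log2 fold change was 0.08. Usp2, a deubiquitinase known to act on MYLIP, rose from 2.80 ± 0.260 to 46.2 ± 5.61 CPM (SD, n = 4 each), a log2 difference of 4.05 ± 0.14 (SE; edgeR's adjusted p = 1.615e-07). Control 2, at 2.90 CPM, did not stand apart for this gene. Vps26a, of the retromer that recycles receptors, rose by 0.36 (SE 0.10, adjusted p = 0.0372), and only the leave-out of control 2 kept its call (0.32 to 0.41 without the others). Vps26a was also not called with the surrogate variable (0.33) or with no filter on low counts (0.37).

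Of 19 genes of sterol transport and esters, 4 rose and 1 fell, beside 6.14% and 6.30% of all genes tested. These genes, the company of Stard4 and Soat2, had a median log2 fold change of −0.01. Osbpl2, a lipid transfer protein of the oxysterol-binding family, rose from 18.2 ± 1.28 to 27.3 ± 1.32 CPM (SD, n = 4 each; log2 fold change 0.58, SE 0.10, adjusted p = 0.00554 by edgeR). Nceh1, a hydrolase of cholesterol esters, rose from 25.7 ± 4.56 to 41.9 ± 2.80 CPM (0.70, SE 0.13, adjusted p = 0.00872). Both calls held in all 8 leave-outs and with the surrogate variable. Lima1, a partner of NPC1L1 in gut cells, rose by 0.58 (SE 0.14, adjusted p = 0.0251), a call lost without control 3, control 4, sorbate 3 or sorbate 4 (0.50 to 0.57). Stard5, a relative of Stard4 named after its value was seen, rose from 76.3 ± 23.8 to 127.3 ± 15.4 CPM (0.74, SE 0.19, adjusted p = 0.0331). Its call was kept in 1 of 8 leave-outs, that of control 2 (0.98, and 0.62 to 0.79 without the others), and lost with the surrogate variable (0.44). Dbi, an acyl-CoA binding protein, fell by 0.91 (SE 0.22, adjusted p = 0.0253), a call kept only without control 2 or sorbate 2 (−0.93 to −0.78 without the others). Lima1 (0.48) and Dbi (−0.66) were not called with the surrogate variable.

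**Figure D5:**
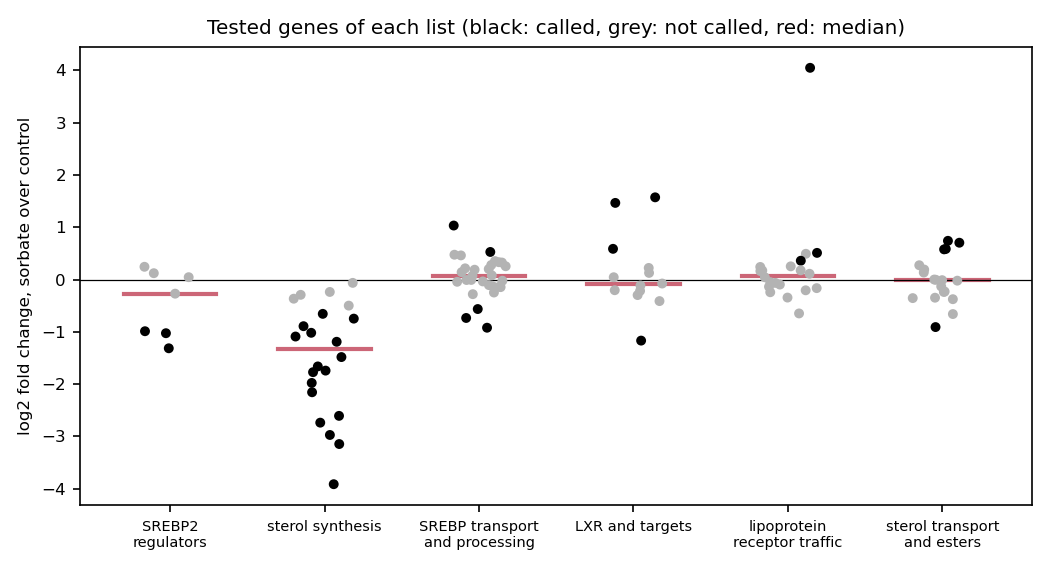
Log2 fold change of sorbate over control (y axis) for the tested genes of each group (x axis), with black points for called genes, grey for uncalled ones and a red line at the median. The sterol synthesis genes center on −1.34, while the medians of the other 4 lists lie between −0.08 and 0.08.

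As a description over the 8 libraries, the genes whose log2 CPM followed each member most closely were listed among 11226 genes, with Pearson's r. A shared difference between the groups or a shared place of control 2 raises r, and no function is inferred. For Srebf2 they were Nek6 (r = 0.997), Cdkn1a (0.995) and Lsr (0.995), and 536 genes reached an r of 0.9. For Insig1 they were Fabp5 (0.990), Apof (0.986) and Ddias (0.979), with 239 genes at 0.9 or above. For Insig2 they were Nans (0.977), Alg14 (0.975) and Gpr89 (0.973), with 119 such genes. The uncalled members had fewer such genes, 33 for Stard4, 14 for Mylip, 9 for Scap and 5 for Soat2. The closest were Mcm10 (0.963) for Stard4, Lrrc32 (0.981) for Mylip, Man1b1 (0.935) for Scap and Nudt16l1 (0.952) for Soat2.

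Total counts ranged from 15773932 to 25844731 per library. Of the variance, 53.6% lay on the first principal component, where control 2, at 15.4, was nearer to the sorbate libraries (21.9 to 37.8) than to the other controls (−49.1 to −42.1). All 7 hepatocyte markers were detected and none was called (median log2 fold change −0.05). Of the other lists, 4 of 8 Kupffer cell and macrophage markers (median −0.90), both tested neutrophil markers (−3.18), 1 of 7 sinusoidal endothelial markers (−0.34), 0 of 7 stellate cell markers (0.06), 2 of 5 bile duct markers (0.06) and 4 of 5 red cell markers (−1.95) were lower, and none was higher. Of 3 tested gut epithelial markers 2, Fabp2 and Lgals4, were higher (median 0.89). In that list Alpi and Cdx2 had 0 reads in all libraries. Vil1, Sis and Muc2 had means of at most 0.103 CPM in either group. Over all genes tested, 6.14% were called higher and 6.30% lower. The summed CPM of the macrophage list was 195.5 to 470.7 in the controls and 140.8 to 272.6 with sorbate, and that of the red cell list 331.4 to 1379 and 251.2 to 372.9. The part of these cells in the results was not tested.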

How the data were processed

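The deposited table holds raw counts of reads per gene, which the authors made from single-read TruSeq libraries of poly(A) RNA, per the labels' protocols. HISAT2 2.1.0, Subread and edgeR with the build GRCm38 are named in the submitters' processing notes. Use of strand, annotation release and counting settings were not given in the sources used here. Columns were matched to samples by library number, and 4 columns that match no sample were not used. Groups follow the treatment label.

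All genes passing filterByExpr (minimum count 10) were TMM-scaled and tested, two-sided, with the quasi-likelihood test of edgeR 4.0.16 in R 4.3.3 (Benjamini-Hochberg). Standard errors came from the coefficient and its F statistic. Alternatives were relative log expression factors, library size alone, no filter, DESeq2 1.42.0, limma-voom 3.58.1 with sample quality weights, 1 surrogate variable (sva 3.50.0), a threshold of 0.1 and leaving out each library. Coordinates and exon lengths come from GENCODE vM21, which held 55227 of the 55487 identifiers. Promoter letters come from RefSeq, where 6 of the 8 genes had a window. The fit was checked on simulated counts.

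Named are the 8 members, from each of 5 pathway lists the 4 called genes with the lowest p, Usp2, Srebf1, Mbtps1, Mbtps2, Nr1h3, Nr1h2 and Soat1, and for each tested member up to 3 genes most like it. The members and lists were chosen with earlier results of these data known. A gene that the rule names is not reported here.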

Additional observations from a re-analysis of the deposited data

Results flagged for a closer look

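Among 16 sets of 4 libraries examined (7 genes and the Insig1 to Insig2 ratio in each group), 2 held a library far from the other 3 by Dixon's gap criterion at 95%, which chance alone meets in about 1 in 20 sets. Insig2 stood at 261.9 CPM in sorbate 2, and the gap to the next library was 0.975 of the range of the sorbate group. Stard4 stood at 106.8 CPM in sorbate 3, with a gap of 0.876 of the range. Control 2 of Srebf2 (28.9 CPM) and of Mylip (3.18 CPM) did not meet the criterion.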

How the results depend on the processing

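The 3 called members, Srebf2, Insig1 and Insig2, kept their calls and their direction in all 8 leave-outs, in the 6 other fits and at the threshold of 0.1, and no other tested member was called in any of these. Over the leave-outs the log2 fold change ran from −1.19 to −0.91 for Srebf2, from −1.37 to −1.21 for Insig1 and from −1.22 to −0.91 for Insig2. The difference in the Insig1 to Insig2 ratio ran from −0.42 to −0.16 and stayed uncalled. Over all genes tested the median log2 value was −0.02 and, with library size alone, 0.11. The counts over all genes, 818 higher and 838 lower, were 1300 and 550 with library size alone, 1968 and 1944 with sample quality weights, 313 and 293 with the surrogate variable, and 1337 and 1414 at the threshold of 0.1. They ran from 332 to 2053 and from 357 to 1915 over the leave-outs, the highest being without control 2. Of the 5 pathway lists together, 12 genes were higher and 22 lower. With the surrogate variable these were 5 and 14, and over the leave-outs 6 (without control 3) to 15 and 15 to 31 (without control 2). The cause of these shifts was not tested. Replicate numbers only name libraries in accession order, no label pairs the libraries, and no paired fit was made. The 4 libraries per group and the spread of the controls limit what can be said of the 4 uncalled members, whose 95% intervals are in the text.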
